A study of Mus musculus with 2 samples.

Results

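Messenger RNAs of 5 of the 6 inducible heat shock chaperones chosen here read 2.20-fold to 9.004-fold lower in DBA/1 than in C57BL/6 mice. Hsp90aa1 was the exception, and the 4 constitutive members differed by less than 2-fold. Over all genes, 1.9% were at least 2-fold lower in DBA/1. Of 19 further targets of heat shock factor 1 with a usable signal, none was at least 2-fold lower. The RNA came from sorted splenic CD4+ T cells on day 7 after immunisation, and markers of other cells also differed between the samples. The members are 10 genes for heat-shock chaperones, Hspa1a, Hspa1b, Dnajb1, Dnajb4, Hsph1, Hsp90aa1, Hspa8, Dnaja1, Hspd1 and Hspe1, taken by gene symbol and represented by 22 of the 22690 probe sets (10 of 12393 genes). They were proposed from earlier results of these same arrays, so their strain differences are given as a description without a test. All 10 genes and all 22 probe sets were over the floor defined below on at least 1 array.

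One RNA sample came from DBA/1 mice, the arthritis-susceptible strain, and was set against RNA from C57BL/6 mice, the resistant strain. Both groups were immunised with glucose-6-phosphate isomerase (GPI), and total RNA was taken on day 7 from magnetically sorted splenic CD4+ T cells. Each strain is 1 sample on 1 array, so no value has a replicate error. The labels do not say how many mice gave each sample, and neither unimmunised mice nor other days are part of the comparison.

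Heat shock factor 1 (HSF1) is held inactive by chaperones in unstressed cells and, when unfolded protein draws those chaperones away, forms trimers that bind repeated GAA units upstream of chaperone genes. The cytosolic HSP70 proteins bind exposed hydrophobic stretches of a client in cycles of ATP hydrolysis; J-domain proteins hand clients over and start the hydrolysis, and HSP110 proteins such as Hsph1 release the ADP. In lymphocytes, HSP70 and its partners are raised by fever-range warmth, by activation and by handling of the tissue, while Hspa8 and the mitochondrial chaperonin are needed in resting cells too.

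The promoters of members are shown because these genes are known targets of HSF1; whether HSF1 takes part in the strain difference was not tested. They are RefSeq sequences of build GRCm38.p6, which is the C57BL/6J genome, so they hold no DBA/1 allele. Each window runs from 250 bases before to 50 bases after an annotated start, 5′ to 3′ in the direction of the gene. Capitals mark every match to GAANNTTC or TTCNNGAA, the 2 ways of setting a GAA unit against its inverse, both of which read the same on the other strand. Overlapping matches are merged into 1 run of capitals.
Hspa1a promoter: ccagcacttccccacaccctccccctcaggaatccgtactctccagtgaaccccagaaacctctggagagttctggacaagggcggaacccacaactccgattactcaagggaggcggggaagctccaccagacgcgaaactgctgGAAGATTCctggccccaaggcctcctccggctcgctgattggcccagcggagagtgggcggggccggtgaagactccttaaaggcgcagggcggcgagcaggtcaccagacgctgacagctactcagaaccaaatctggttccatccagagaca
Hspa1b promoter: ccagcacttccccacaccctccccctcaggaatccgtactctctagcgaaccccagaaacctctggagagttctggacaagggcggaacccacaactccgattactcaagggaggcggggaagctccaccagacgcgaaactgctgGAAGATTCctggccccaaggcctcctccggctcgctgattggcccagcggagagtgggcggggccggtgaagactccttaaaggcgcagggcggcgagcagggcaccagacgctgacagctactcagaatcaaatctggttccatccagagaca
Hsph1 promoter: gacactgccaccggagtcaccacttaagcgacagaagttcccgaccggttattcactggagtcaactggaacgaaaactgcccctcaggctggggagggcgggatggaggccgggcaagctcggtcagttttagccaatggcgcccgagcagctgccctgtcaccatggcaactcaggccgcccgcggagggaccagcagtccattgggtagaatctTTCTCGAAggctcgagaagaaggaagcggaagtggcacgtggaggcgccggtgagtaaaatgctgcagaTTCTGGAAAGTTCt
Dnajb4 promoter: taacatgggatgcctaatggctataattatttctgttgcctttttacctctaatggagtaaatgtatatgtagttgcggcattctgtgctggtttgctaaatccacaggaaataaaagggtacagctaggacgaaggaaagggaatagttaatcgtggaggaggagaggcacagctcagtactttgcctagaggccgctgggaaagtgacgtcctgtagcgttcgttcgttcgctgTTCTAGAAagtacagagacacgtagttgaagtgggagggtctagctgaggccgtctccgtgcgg
Dnajb1 promoter: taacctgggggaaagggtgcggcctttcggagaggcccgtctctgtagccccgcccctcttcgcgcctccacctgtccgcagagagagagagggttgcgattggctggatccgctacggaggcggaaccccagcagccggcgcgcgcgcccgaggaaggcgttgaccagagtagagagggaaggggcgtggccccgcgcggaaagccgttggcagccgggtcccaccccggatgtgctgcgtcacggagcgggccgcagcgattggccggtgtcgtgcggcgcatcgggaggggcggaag
Dnaja1 promoter: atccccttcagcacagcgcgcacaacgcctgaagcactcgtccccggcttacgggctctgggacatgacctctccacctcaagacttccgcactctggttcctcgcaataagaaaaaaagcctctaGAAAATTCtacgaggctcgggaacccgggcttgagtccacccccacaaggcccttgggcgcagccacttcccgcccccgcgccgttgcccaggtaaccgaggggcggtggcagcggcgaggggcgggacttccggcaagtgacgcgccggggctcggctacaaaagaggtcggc
Hspe1 promoter: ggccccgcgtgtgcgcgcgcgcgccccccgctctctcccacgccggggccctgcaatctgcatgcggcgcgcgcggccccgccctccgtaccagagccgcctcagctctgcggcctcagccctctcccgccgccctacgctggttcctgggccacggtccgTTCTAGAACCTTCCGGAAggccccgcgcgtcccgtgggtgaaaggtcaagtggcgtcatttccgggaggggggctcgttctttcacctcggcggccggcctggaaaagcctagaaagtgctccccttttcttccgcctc

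The windows lie at chr17:34972107-34972406, minus strand (Hspa1a), chr17:34959189-34959488, minus strand (Hspa1b), chr5:149636287-149636586, minus strand (Hsph1), chr3:152193796-152194095, minus strand (Dnajb4), chr8:83607925-83608224, plus strand (Dnajb1), chr4:40722218-40722517, plus strand (Dnaja1) and chr1:55087898-55088197, plus strand (Hspe1). The Hspa1a and Hspa1b windows were identical at 296 of 300 bases (98.7%), and each holds 1 match, starting 104 bases before the gene's start. Hsph1 has a match starting 33 bases before its start and a pair of overlapping matches from 36 bases after it. Dnajb4 has 1 match 14 bases before the start shown, and Dnaja1 has 1 match 124 bases before it. The other windows of Dnajb4 and Dnaja1, at other annotated starts and not printed, hold none.

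Hspe1 carries a run of 4 alternating units from 89 bases before its start. Hspd1 is transcribed the other way from the same stretch: 285 bases of one of its windows are the opposite strand of the Hspe1 window. Neither Dnajb1 window holds these letters. The table used lists 14 windows for 8 of the members, and 7 of these 8 genes have at least 1 match in at least 1 window. Of all 27025 genes in the table, 16.97% have one. A match of 3 alternating units, GAANNTTCNNGAA or TTCNNGAANNTTC, stands in windows of 3 members (Hsph1, Hspd1 and Hspe1) and of 0.662% of all genes. Over windows of this length, 15.1% of 32851 hold a match of 2 units and 0.603% one of 3. Of the 14 member windows, 8 hold a match of 2 units and 4 one of 3. A gene with more windows has more places for a match. The windows of Hspa1a and Hspa1b largely repeat each other. So do the windows of Hsph1, which overlap and hold the same matches, and those of Hspe1 and Hspd1 that overlap. All 4 windows with a match of 3 units are among these overlapping ones. The member counts are therefore not of independent promoters. Such a match is a description of letters, not a measured binding site.

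Every array value below is a MAS5 signal, an intensity on a linear scale in which MAS5 weighs matched against mismatched probes of 1 probe set. The median of each array, 37.6 in DBA/1 and 38.04 in C57BL/6, served as a floor to which lower signals were set. A log2 ratio is that of DBA/1 over C57BL/6, so a negative value means lower in DBA/1. Where a gene has several probe sets, its value is that of the brightest by mean log2 signal; the others are given for every member. The plot of signals by probe set shows all of them.

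**Figure D1:**
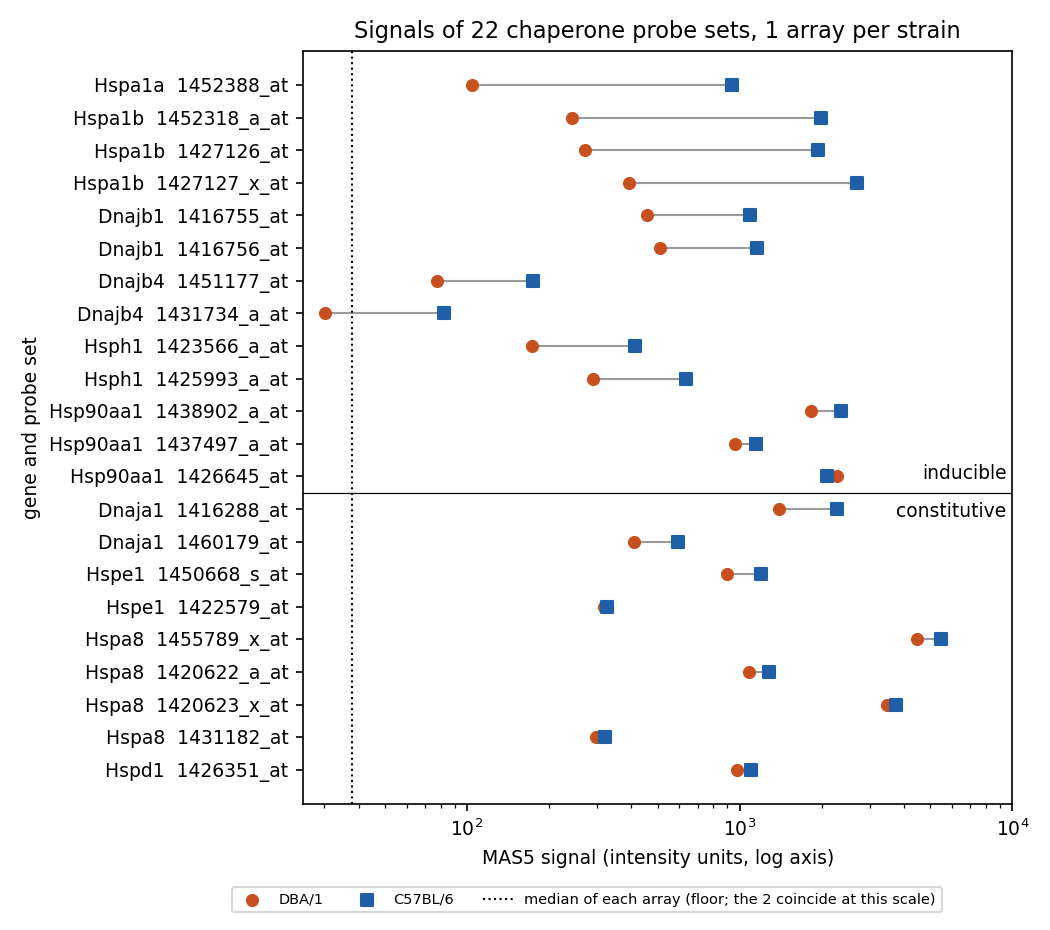
MAS5 signals of the 22 chaperone probe sets (log axis, intensity units), with DBA/1 as circles and C57BL/6 as squares, 1 array per strain, and the array medians as a dotted line. The bars are long for Hspa1a and Hspa1b, shorter for Dnajb1, Dnajb4 and Hsph1, and short for Hsp90aa1 and for the constitutive genes below the horizontal line.

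The largest differences were those of the inducible HSP70 genes. Hspa1a and Hspa1b encode nearly the same cytosolic HSP70, which is scarce in most resting cells and made in quantity after stress. Hspa1a, with 1 probe set, read 104 in DBA/1 and 939.5 in C57BL/6, a log2 ratio of -3.17 (9.004-fold lower in DBA/1). The brightest Hspa1b probe set read 393 in DBA/1 and 2692 in C57BL/6, a log2 ratio of -2.78 (6.85-fold lower). The other Hspa1b probe sets read 270.0 in DBA/1 against 1933 in C57BL/6 (-2.84), and 243 in DBA/1 against 1984 in C57BL/6 (-3.03).

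All 4 inducible HSP70 probe sets were thus over the floor on both arrays, and their log2 ratios lay between -3.17 and -2.78. Because the coding sequences of these genes are nearly identical, signal from one may reach the probes of the other, and the 4 probe sets cannot be read as independent measurements of 2 genes. Among 6936 genes over the floor on at least 1 array, ordered from the lowest log2 ratio, Hspa1a was at place 7 and Hspa1b at place 9. These places are taken with floored signals, and a gene whose DBA/1 signal lay under the floor, such as Cd8b1 (16.1 in DBA/1 and 199 in C57BL/6), could stand lower than its limit. The genes nearest to their mean log2 ratio of -2.97, among genes over both floors with a signal at or over the 75th percentile, were Rpgrip1 (-2.80), Gbp7 (-2.67), H2-Eb1 (-3.65), Apobec3 (-2.21) and Donson (-2.18). This likeness is over 2 samples only.

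The HSP70 partners Dnajb1, Dnajb4 and Hsph1 were each a little more than 2-fold lower in DBA/1. Dnajb1, the main heat-inducible J-domain protein of the cytosol, read 512 in DBA/1 and 1154 in C57BL/6 on one probe set (log2 ratio -1.17, 2.25-fold lower) and 456 in DBA/1 and 1089.7 in C57BL/6 on the other (-1.26). Dnajb4, a related J-domain protein of the same class, read 77.4 in DBA/1 and 175 in C57BL/6 (-1.17, 2.25-fold lower). Its second probe set read 30.02 in DBA/1, under the floor, and 82.2 in C57BL/6, which makes it at least 2.19-fold lower.

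Hsph1, the inducible HSP110 that recycles HSP70 and helps it take apart aggregates, read 289 in DBA/1 and 635 in C57BL/6 (log2 ratio -1.14, 2.20-fold lower) and, on its other probe set, 174 in DBA/1 and 412 in C57BL/6 (-1.25). The paired log2 ratios lay within 0.083 of each other for Dnajb1 and 0.11 for Hsph1. Dnajb4 read nearest to the floor, and with a pseudocount of 32 added to both signals its log2 ratio was -0.92, under 2-fold.

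Hsp90aa1, the stress-inducible isoform of cytosolic HSP90, did not share the difference of the other inducible members. Its brightest probe set read 2270.2 in DBA/1 and 2086 in C57BL/6, a log2 ratio of 0.12. The others read 1819.8 in DBA/1 against 2348 in C57BL/6 (-0.37) and 959.8 in DBA/1 against 1150.4 in C57BL/6 (-0.26). The probe sets of this gene therefore disagreed in direction, and none reached 1.5-fold. The sign of the brightest one also turned with scaling, at -0.074 after quantile normalization and -0.032 after lowess.

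Among the constitutive members, Dnaja1 stood closest to the inducible ones. Dnaja1, a J-domain protein of another class that works with Hspa8 in protein import and refolding, read 1394 in DBA/1 and 2264 in C57BL/6 (log2 ratio -0.70, 1.62-fold lower), and 408 in DBA/1 and 591 in C57BL/6 on its other probe set (-0.54). Dnaja1 is the member just outside 2-fold and Hsph1 the member just inside it.

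Hspa8, the HSP70 that is present in every resting cell and takes part in clathrin uncoating, has 4 probe sets. They read 4448 in DBA/1 against 5448 in C57BL/6 (log2 ratio -0.29), 3464 in DBA/1 against 3754.5 in C57BL/6 (-0.12), 1085 in DBA/1 against 1279 in C57BL/6 (-0.24), and 297 in DBA/1 against 321 in C57BL/6 (-0.11). All lay slightly below 0 and none reached 1.5-fold. The brightest, like that of Hspa1b, has a suffix that marks possible cross-hybridisation. Without probe sets so marked, the log2 ratio of Hspa8 was -0.11. The log2 ratio of Hspa1a was lower than that of Hspa8 by 2.88 and that of Hspa1b was lower by 2.48.

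The mitochondrial chaperonin genes had small differences. Hspd1 encodes the HSP60 barrel and Hspe1 its HSP10 lid. Hspd1, with 1 probe set, read 976 in DBA/1 and 1103.5 in C57BL/6 (log2 ratio -0.18). Hspe1 read 899 in DBA/1 and 1195 in C57BL/6 (-0.41) on a probe set whose suffix marks possible cross-hybridisation, and 319 in DBA/1 and 327 in C57BL/6 (-0.036) on the other. The probe sets of Hspe1 thus differed in size, and none of the pair's reached 1.5-fold.

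**Figure D2:**
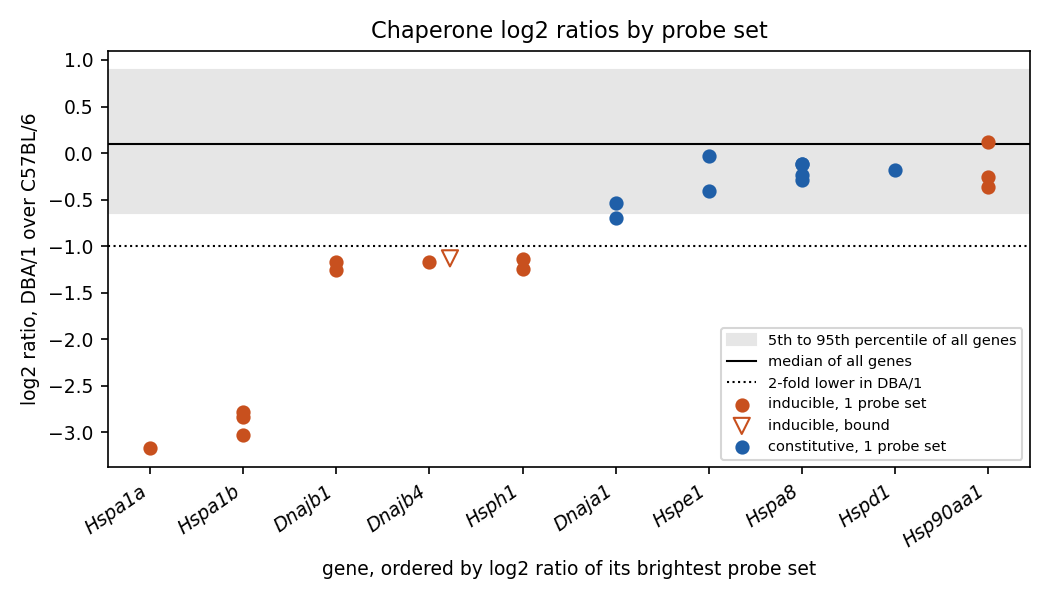
Log2 ratio of DBA/1 over C57BL/6 (vertical axis) for each probe set of the 10 genes (horizontal axis, by the brightest probe set), inducible in orange and constitutive in blue; the open triangle is a bound. The HSP70 genes lie between -3.17 and -2.78, Dnajb1, Dnajb4 and Hsph1 between -1.26 and -1.13, and the rest between -0.70 and 0.12, while the grey band holds the 5th to 95th percentile of all genes (-0.64 to 0.90).

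Set side by side, the inducible members had a median log2 ratio of -1.17 over 6 genes and the constitutive members one of -0.35 over 4 genes, a difference of -0.82. Constitutive members such as Dnaja1 and Hspe1 are known HSF1 targets too, so the classes do not separate HSF1 targets from other genes. The median of all 6936 genes was 0.10. Of the inducible members 5 of 6 were at least 2-fold lower in DBA/1, of the constitutive members 0 of 4, and no member was 2-fold higher. Over all genes 1.9% were at least 2-fold lower in DBA/1 and 3.84% at least 2-fold higher; since the members were proposed from this contrast, nothing is read from the gap to their own count. The first share moved with the treatment of low signals, being 0.678% of 12393 genes with a pseudocount of 32 and 12.3% of 12393 without a floor. Those settings also take in the genes under the floor on both arrays. By probe set, 10 of 13 inducible and 0 of 9 constitutive ones were at least 2-fold lower, against 2.23% of 10889 single-gene probe sets over the floor.

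Of the 22 member probe sets 21 were below 0, as were 42.0% of all single-gene probe sets over the floor. The one above 0 belongs to Hsp90aa1. Leaving out Hspa1a and Hspa1b, which was decided on seeing the values, gave an inducible median of -1.15. Dnajb1, Dnajb4, Hsph1 and Dnaja1 stood at places 82, 83, 93 and 291 of the 6936 genes, and Hspe1, Hspa8, Hspd1 and Hsp90aa1 at places 729, 1094, 1602 and 3635.

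Repeat measurements exist only as further probe sets for a gene. For 2325 genes, a pair of them lay over both floors; their log2 ratios differed with an SD of 0.43, an error of 0.31 for 1 probe set. On the brightest probe sets, the log2 ratios of Hspa8, Hspd1 and Hsp90aa1 were within that error of 0, and those of the other members exceeded it. The other probe set of Hspe1 (-0.036) was within it, and a further one of Hsp90aa1 (-0.37) exceeded it. Distances here are from 0, while the median of all genes was 0.10. This error is 1 SD and covers probes only, not mice, sorts or labelling, so a value beyond it is not by itself a strain difference.

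**Figure D3:**
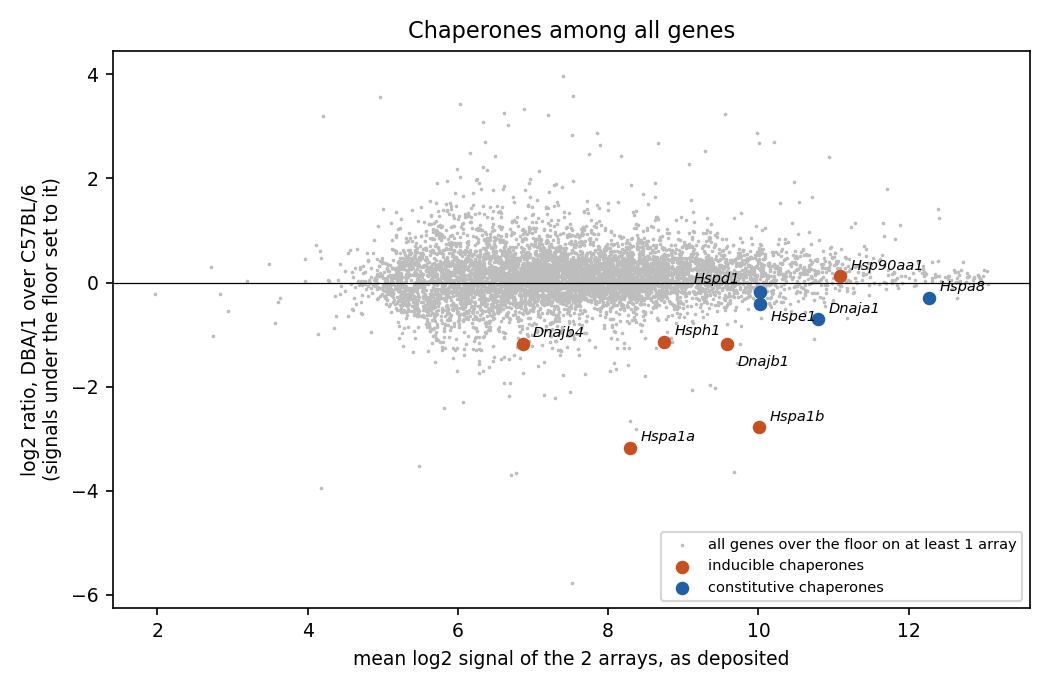
Log2 ratio of DBA/1 over C57BL/6 against the mean log2 signal of both arrays for all 6936 genes over the floor on at least 1 array (grey), with the inducible (orange) and constitutive (blue) chaperones named. Hspa1a and Hspa1b lie at -3.17 and -2.78 below the cloud, and Hsp90aa1 at 0.12 within it.

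Other genes of the HSF1 and chaperone network were described from lists. Of 126 usable genes on the pathway lists that are not members, 1 was at least 2-fold lower in DBA/1 and 4 at least 2-fold higher, beside 1.9% and 3.84% of all genes, and their median log2 ratio was 0.054 beside 0.10 over all genes. Since the members were chosen from these arrays, nothing is read from the gap between them and the genes left over. Of the factors themselves, Hsf2 and Hsf4 were under the floor on both arrays, and Hsbp1, a binding partner that restrains HSF1, read 595 in DBA/1 and 466 in C57BL/6 (log2 ratio 0.35). Of 6 listed factors, 3 were measured by probe sets with 1 gene symbol, and Hsf1 was not among them.

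Of 19 usable further HSF1 targets, 9 were below 0 and 10 above, with a median of 0.10, none 2-fold lower and 1 at least 2-fold higher. Stip1, which links HSP70 to HSP90, read 210 in DBA/1 and 340.3 in C57BL/6 (-0.70). Chordc1, an HSP90 partner raised by heat, read 646 in DBA/1 and 900.1 in C57BL/6 (-0.48), and the hydroxylase gene Jmjd6 read 111 in DBA/1 and 163 in C57BL/6 (-0.55). The gene at least 2-fold higher was Hmox1 (heme oxygenase), at 220.0 in DBA/1 and 64.5 in C57BL/6, which other stress factors also regulate and which is on the macrophage marker list too. The small heat shock genes Hspb1, Hspb8 and Cryab were under the floor on both arrays, as was Hspa1l, which lies beside Hspa1a.

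The other HSP70 and HSP90 genes were slightly above 0 on their brightest probe sets. Their 4 usable genes had a median log2 ratio of 0.20, led by Hspa4, a constitutive HSP110, at 909 in DBA/1 and 678 in C57BL/6 (0.42). The log2 ratio of Hsph1 was 1.56 below that of Hspa4. One of its other probe sets, at 41.8 in DBA/1 and 91.1 in C57BL/6, gave -1.12. Of the rest, Hspa14 was at 0.28, the mitochondrial HSP90 Trap1 at 0.13 and the mitochondrial HSP70 Hspa9 at 0.021. Further probe sets of Trap1 (-0.40) and Hspa9 (-0.31 and -0.26) were below 0. Hsp90ab1, planned for comparison with Hsp90aa1, had no usable value.

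The J-domain list without members had a median of 0.12 over 24 genes, with no value beyond 2-fold in either direction. Dnaja4 (-0.82), Dnajc24 (0.82), Dnajb2 (-0.62) and Dnajc14 (-0.47) were its largest, the first 3 of them under the 75th percentile on both arrays. The co-chaperones had a median of -0.047 over 25 genes, also with none beyond 2-fold, and after Stip1 its largest were Grpel1 (0.59), Tomm34 (-0.50) and Chordc1. The cytosolic chaperonin CCT and its partner prefoldin had a median of 0.057 over 13 genes, with Pfdn1 at 0.55, Cct2 at 0.39, Pfdn5 at 0.36 and Cct5 at 0.24. Among dimmer genes, Dnajb13 read 20.4 in DBA/1, under the floor, and 45.9 in C57BL/6, so its -0.29 is only a limit, as are the values of Dnajc27 and Bag3. Probe sets of a gene disagreed in sign for Cct2 (another at -0.34), Dnaja4 (others at 0.23 and -0.077) and Dnajc14 (others at 0.13 and -0.68).

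The lists for other compartments, which leave out the members Hspd1 and Hspe1, had medians above 0, beside 0.10 over all genes. The list of endoplasmic reticulum chaperones and unfolded protein response genes had a median of 0.26 over 23 genes, with Sdf2l1 at 158 in DBA/1 and 70.0 in C57BL/6 (log2 ratio 1.18), Dnajc10 at 0.93, Pdia4 at 0.81 and Pdia6 at 0.71. The mitochondrial proteostasis list had a median of 0.18 over 10 genes, with Grpel1 (0.59), Yme1l1 (0.48), Htra2 (0.43) and Dnaja3 (-0.26) the largest. Immediate early genes, which are induced within minutes of activation or tissue handling, had a median of -0.040 over 19 genes. Of these, Dusp2 was 2.99-fold lower in DBA/1 (-1.58), Ier3 and Atf3 were at least 2-fold higher (1.12 and 1.04), and Egr2 stood at 0.69. Several genes sit on more than 1 of these lists.

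**Figure D4:**
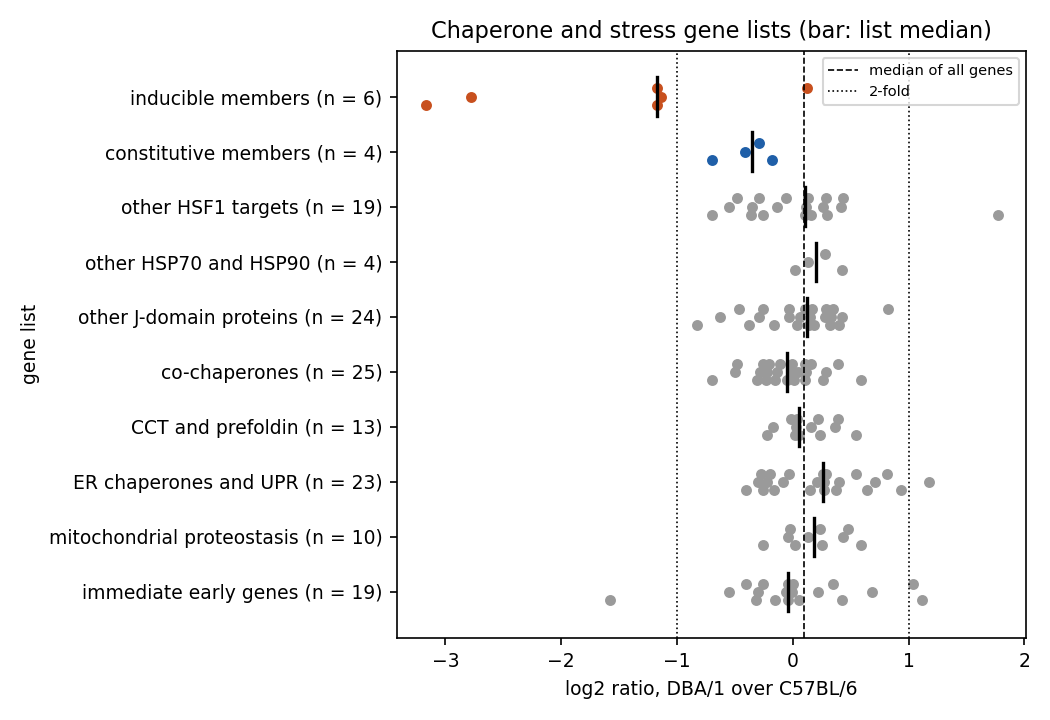
Log2 ratio of DBA/1 over C57BL/6 (horizontal axis) of each gene over the floor on at least 1 array, by list (rows, with the number of genes), with list medians as bars, the median of all genes dashed and 2-fold dotted. The inducible members have a median of -1.17 and the constitutive ones of -0.35, and the medians of the other 8 lists drawn lie between -0.047 and 0.26.

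Hspa1b and Hspa1a lie next to each other on chromosome 17 in the class III part of the MHC, where the strains carry different haplotypes. The nearest genes over the floor on at least 1 array are therefore given beside them. Of the 16 nearest protein-coding genes over the floor, 8 on each side in RefSeq order, 1 was at least 2-fold lower in DBA/1, and their median log2 ratio was -0.027. That gene was D17H6S56E-5, which read 67.0 in DBA/1 and 299 in C57BL/6 (-2.16). Its second probe set read 36.3 in DBA/1, under the floor, and 327 in C57BL/6.

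Vars, a transfer RNA synthetase gene next to it, read 85.8 in DBA/1 and 171 in C57BL/6 (log2 ratio -0.997). Lsm2, which lies between Hspa1a and these genes, was at -0.19, and Neu1, the nearest on the other side, at 0.34. The low log2 ratios of Hspa1a and Hspa1b were thus not shared by their closest measured neighbours, while a pair of genes slightly farther on were also lower in DBA/1. Whether sequence differences between the haplotypes under the probes take part was not tested. Dnajb1, Dnajb4 and Hsph1 lie on chromosomes 8, 3 and 5, outside the MHC.

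**Figure D5:**
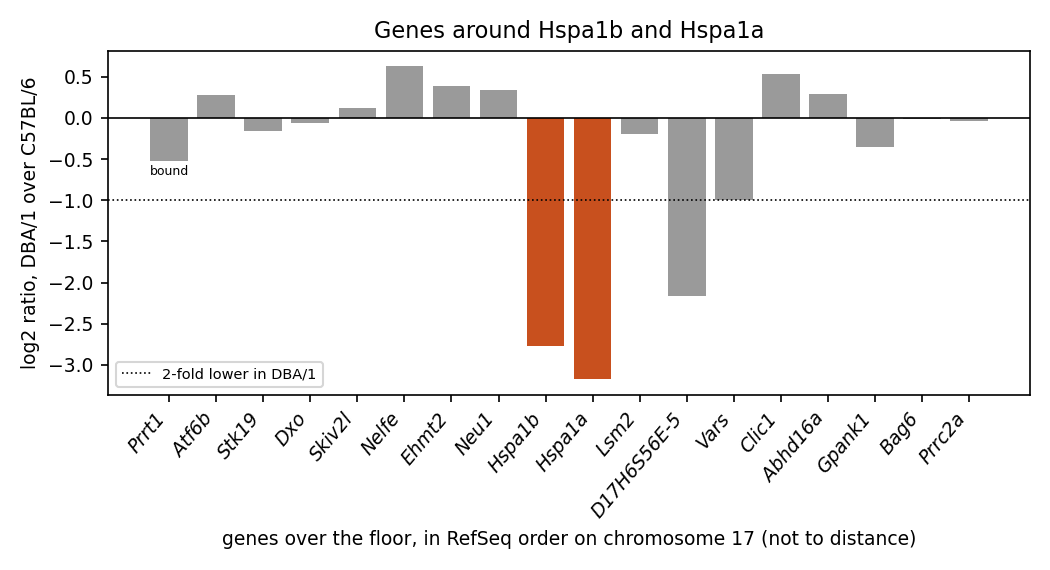
Log2 ratio of DBA/1 over C57BL/6 (bars) for Hspa1b and Hspa1a (orange) and the 16 nearest protein-coding genes over the floor on at least 1 array (grey), in RefSeq order on chromosome 17 and not to distance. The orange bars reach -2.78 and -3.17, D17H6S56E-5 reaches -2.16, and the other genes lie between -0.997 and 0.63.

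Markers of cells other than CD4+ T cells were measured on both arrays and differed in signal between them. The Cd4 signal was 913 in DBA/1 and 857 in C57BL/6. The 12 measured CD4 T cell genes summed to 16548 in DBA/1 and 18063 in C57BL/6 (median log2 ratio -0.076, 10 of 12 below 0). Higher in DBA/1 were the neutrophil genes (12 of 12 usable above 0, summed signal 34492 in DBA/1 and 10702 in C57BL/6), the genes of monocytes and macrophages (13 of 13, 6862 and 3102), the dendritic cell genes (7 of 8, 5108 and 2342) and the B cell genes (7 of 9, 4963 and 4177). Among their markers, Cxcr2, Fcgr1, Xcr1, Pax5 and Ebf1 were under the floor on both arrays.

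Lower in DBA/1 were the CD8 T cell genes (7 of 7 below 0, 406 in DBA/1 and 1098 in C57BL/6). NK cell genes went both ways (3 of 5 below 0, 2931 in DBA/1 and 2472 in C57BL/6, with Ncr1, Klra8 and Gzma under the floor). Most of that sum was Tyrobp, which myeloid cells also express (2381 in DBA/1 and 1343 in C57BL/6), while Klrd1 read 145 in DBA/1 and 470.3 in C57BL/6 and Il2rb 201 in DBA/1 and 483 in C57BL/6. Both directions were also seen in erythroid genes (3 of 6 below 0, 1991 and 1908), and 2 of 2 usable platelet genes were above 0 (220.1 and 187). The part of these cells in the chaperone differences was not tested, and fewer cells of a type cannot be told apart from less RNA per cell. The 3′ over 5′ signal ratios of the RNA quality controls were 1.25 in DBA/1 and 1.27 in C57BL/6 for Actb, 0.781 in DBA/1 and 0.709 in C57BL/6 for Gapdh, and 5.08 in DBA/1 and 4.15 in C57BL/6 for Tfrc.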

How the data were processed

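RNA of splenic CD4+ T cells was measured on 2 arrays, 1 per strain, from 3 µg of total RNA labelled by an oligo(dT)-T7 method, per the labels' protocols. The authors deposited linear intensities per probe set, made with MAS5 per the submitters' processing notes; no source used here gives its version or scaling target, and no detection calls were used. Of 22690 probe sets, 20380 had 1 gene symbol in the platform annotation, 691 several, 1555 none, and 64 were controls. All 10 member symbols matched RefSeq by Entrez identifier.

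Signals under the array median were set to it, then log2 ratios were taken with Python 3.11.15 and pandas 2.3.3, and a difference was counted at 2-fold. Each gene took its brightest probe set by mean log2 signal. The ratio code was tested on simulated data. With 1 array per strain there was no test. Inducible and constitutive classes, gene lists and the rule for named genes (all members, the 4 largest of each list, fixed paralogues, the 5 nearest genes, marker ends) were chosen with earlier results of these data known; the chromosome 17 neighbours and the genes noted under the floor were added after the data were seen. The precision is limited by the number of arrays. Alternatives were scaling (median, quantile, lowess with span 0.3), floors, a pseudocount, probe set choice and class membership.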

Additional observations from a re-analysis of the deposited data

How the results depend on the processing

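The count of 5 members at least 2-fold lower in DBA/1 stayed between 4 and 6 over the alternatives run. It was 4 with a pseudocount of 32, where Dnajb4 reached -0.92, 4 with Hspa1a and Hspa1b as 1 gene, and 6 at 1.5-fold, where Dnaja1 joined. It was also 4 without probe sets whose names end in a_at, s_at or x_at. Hsph1 drops out there because its probe sets all end in a_at. That setting goes by name ending only and does not show that the Hsph1 probe sets cross-hybridise. The inducible median ranged from -1.29 to -1.09, the constitutive median from -0.50 to -0.15, and their difference from -1.03 to -0.75. Of the single genes, Hspa1a moved by more than the probe error with the pseudocount (-2.83). Hspe1 did so without the probe sets left out by name ending (-0.036). Among all genes, the share of 2-fold calls that were lower in DBA/1 was 33.2%, against 45.3% after centring on probe sets over both floors (added after the data were seen), 45.7% with the floor at percentile 25 and 50.1% without a floor. The share of genes at least 2-fold lower, 1.9% of 6936, was 12.3% of 12393 without a floor and 4.81% of 10282 with the floor at percentile 25. It was 1.41% of 5872 with the floor at percentile 60 and 0.678% of 12393 with the pseudocount, and lay between 1.79% and 2.41% otherwise. The set of genes thus changed along with the floor or pseudocount, for both shares. The floor limits what can be said of dim probe sets. No paired analysis was possible because each strain has 1 sample.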
